A study of Mus musculus with 6 samples.

Results

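The 10 genes described here are the piRNA pathway and germline genes Tdrd12, Tdrd1, Tdrd5, Tdrkh, Piwil2, Mael, Asz1, Mov10l1, Ddx4 and Dazl, measured in mouse blastocysts on Illumina BeadArrays. Members were taken as every probe with 1 of these symbols in the platform annotation, which gave 17 of 45281 probes, for 10 of 19057 named genes. The set was chosen by a measured value, the higher signal of Tdrd12 on the oviduct arrays, so every comparison with the oviduct group is given for these genes as a description, with no test. CD-1 mice, an outbred stock, were superovulated with 5 IU of pregnant mare gonadotropin and, 44 h later, 5 IU of human chorionic gonadotropin, and were mated. RNA came from pools of 100 to 120 blastocysts. They were taken from the uterus of untreated pregnant mice (uterus group, 2 arrays), from the uterus of mice given 0.5 µg of a compound that the labels name only as ICI (ICI uterus group, 2 arrays), or from ligated oviducts (oviduct group, 2 arrays). The study's design text puts all embryos at day 3.5, while the protocol text names 70 h after human chorionic gonadotropin for the uterine groups and day 4 post coitum for the oviduct group, counting the day of the plug as day 1, so a difference in age between the groups was not tested. All groups had the same hormone priming and stock of mice, and each array stands for 1 pool of embryos. The labels do not say if replicate pools had different mothers, so p-values measure the spread between these pools only, which may be technical.

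PIWI-interacting RNAs (piRNAs) are small RNAs that guide PIWI proteins to transposon transcripts, and in the mouse they are best known from male germ cells. Their precursors are bound and unwound by helicases, cut and trimmed at the surface of mitochondria, and loaded onto PIWI proteins in granules called nuage, where tudor-domain proteins hold the parts together by binding methylated arginines. Many genes of this machinery have CpG-rich start sites that are silenced by DNA methylation in somatic cells, and the blastocyst is a stage of low DNA methylation.

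The start sites of the genes are shown first because the CpG content that this background concerns can be read from them. RefSeq promoter windows of 300 bases, 250 before to 50 after a start, were found for 9 of the 10 genes, in 12 windows on assembly GRCm38.p6. Shown are a window for 4 of the genes that were higher on both oviduct arrays (Tdrd12, Tdrkh, Asz1, Mov10l1) and for the germ cell genes Ddx4 and Dazl, which were close to background. They run 5′ to 3′ on the strand of the gene, and capitals mark CpG dinucleotides.
Tdrd12 (chr7:35537666-35537965, GRCm38.p6, - strand): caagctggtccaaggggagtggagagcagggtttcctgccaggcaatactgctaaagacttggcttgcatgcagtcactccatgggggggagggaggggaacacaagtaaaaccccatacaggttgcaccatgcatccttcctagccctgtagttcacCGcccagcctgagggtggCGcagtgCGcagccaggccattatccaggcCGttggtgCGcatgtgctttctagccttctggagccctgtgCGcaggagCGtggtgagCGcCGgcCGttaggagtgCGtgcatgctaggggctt
Tdrkh (chr3:94412994-94413293, GRCm38.p6, + strand): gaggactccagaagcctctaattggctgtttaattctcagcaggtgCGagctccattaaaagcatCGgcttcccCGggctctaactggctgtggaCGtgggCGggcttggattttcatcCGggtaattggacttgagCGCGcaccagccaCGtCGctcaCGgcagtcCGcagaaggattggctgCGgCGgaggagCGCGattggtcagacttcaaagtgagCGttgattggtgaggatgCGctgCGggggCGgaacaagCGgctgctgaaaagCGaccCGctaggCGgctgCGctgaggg
Asz1 (chr6:18109012-18109311, GRCm38.p6, - strand): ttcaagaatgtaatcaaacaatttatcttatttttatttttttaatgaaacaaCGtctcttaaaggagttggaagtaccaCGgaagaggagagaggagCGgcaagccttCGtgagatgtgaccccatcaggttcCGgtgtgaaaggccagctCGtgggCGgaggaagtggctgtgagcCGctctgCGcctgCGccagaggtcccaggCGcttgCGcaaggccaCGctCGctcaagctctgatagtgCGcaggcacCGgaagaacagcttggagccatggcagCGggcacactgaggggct
Mov10l1 (chr15:88982744-88983043, GRCm38.p6, + strand): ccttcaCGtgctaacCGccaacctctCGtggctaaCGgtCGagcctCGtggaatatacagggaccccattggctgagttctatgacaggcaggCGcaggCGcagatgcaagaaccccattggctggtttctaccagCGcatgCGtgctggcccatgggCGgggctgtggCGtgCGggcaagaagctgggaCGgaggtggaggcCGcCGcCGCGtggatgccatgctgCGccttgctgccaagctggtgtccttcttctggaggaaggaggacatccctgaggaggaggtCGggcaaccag
Ddx4 (chr13:112652261-112652560, GRCm38.p6, - strand): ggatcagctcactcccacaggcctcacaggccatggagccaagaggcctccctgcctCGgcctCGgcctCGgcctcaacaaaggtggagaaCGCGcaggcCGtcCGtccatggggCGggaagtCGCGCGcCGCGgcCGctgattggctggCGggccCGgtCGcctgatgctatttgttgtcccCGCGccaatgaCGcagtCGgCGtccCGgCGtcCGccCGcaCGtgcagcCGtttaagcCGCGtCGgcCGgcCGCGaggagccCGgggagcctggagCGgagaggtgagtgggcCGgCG
Dazl (chr17:50293571-50293870, GRCm38.p6, - strand): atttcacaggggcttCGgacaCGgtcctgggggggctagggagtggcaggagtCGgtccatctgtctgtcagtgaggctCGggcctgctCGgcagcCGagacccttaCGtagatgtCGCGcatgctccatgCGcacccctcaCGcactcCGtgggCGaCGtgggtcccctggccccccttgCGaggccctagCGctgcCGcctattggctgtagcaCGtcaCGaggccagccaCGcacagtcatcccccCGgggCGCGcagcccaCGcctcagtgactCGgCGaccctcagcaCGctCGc
The Tdrd12 window shown held 11 CpG dinucleotides, that of Asz1 17, Mov10l1 20, Tdrkh 25, Dazl 28 and Ddx4 38. Over all 32851 windows the median was 7 and the upper quartile 20. The Tdrd12 and Asz1 windows were below that quartile, and 58.6% of all windows held fewer than the Tdrd12 window shown. Of the windows shown, the pair with the most CpG dinucleotides belonged to the genes close to background. Among those not shown, the window of Tdrd5, above background on all 6 arrays, held 48. Windows of Tdrd1 and Mael, above background on no array, held 3 to 25. A relation of CpG content to signal was not tested. Of the 9 genes, 4 had the E-box CACGTG (a palindrome, the site of MYC, MAX and related factors) in a window, namely Tdrd1, Mael, Mov10l1 and Ddx4. An E2F6-type site (GCGGGAA, or TTCCCGC on the opposite strand), was in the windows of Tdrd5 and Ddx4, and the sites in the Ddx4 window did not overlap. Of all windows, each counted by itself, 7.15% held the E-box and 4.6% the E2F6-type site. The genes above were counted when any of their windows held a site. Both sites contain a CpG dinucleotide, so the shares over all windows are no like measure for CpG-rich windows. The sites are matches of letters only.

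Signals were background-corrected and quantile normalized, and values below are log2 normalized signals unless stated. Between 16525 and 18182 probes were above background (detection p under 0.05) on an array. The mean signal was 488.3 and 381.4 on the oviduct arrays against 343.5 to 374.9 on the others. The oviduct pools were less alike (r = 0.96 across kept probes, and 33.8% of probes apart by over 0.5) than the uterus pools (0.988 and 12.3%) or ICI uterus pools (0.991 and 8.22%). Of 15 blastocyst markers with a probe, 14 were measured, including the trophectoderm factor Cdx2 (12.08 to 13.23 over the 6 arrays) and the inner cell mass factor Nanog (10.65 to 11.64). For comparison, 17677 probes were kept, those above background on both arrays of 1 or more groups. Of the 10 genes, 8 had such a probe, 7 of them above background on all 6 arrays and Dazl on 5. With whole pools, a change in RNA per cell cannot be told apart from a change in the number of cells of a type.

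Tdrd12 encodes a tudor-domain protein with a helicase domain that binds PIWI proteins in mouse germ cells. Its unnormalized signal was 129.0 and 149.0 on uterus replicates 1 and 2, 133.5 and 124.6 on ICI uterus replicates 1 and 2, and reached 439.5 and 330.7 on those of the oviduct group. After normalization it stood at 6.34 and 6.66 (uterus), 6.26 and 6.25 (ICI uterus), and 8.12 and 8.05 (oviduct). Both oviduct arrays lay above the 4 uterine arrays, the lowest of them by 1.39. The difference of the group means was 1.59 (SE 0.19) from the uterus group, a 3-fold level, and 1.83 (SE 0.19) from the ICI uterus group. This is the difference for which the set was drawn up.

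Tdrkh, whose product holds the trimming of piRNA precursors at the mitochondrion, was measured by 2 kept probes. The brighter stood at 6.90 and 6.65 (uterus), 6.96 and 6.95 (ICI uterus), and 7.97 and 8.36 (oviduct). Its oviduct mean was 1.39 (SE 0.21) above the uterus mean and 1.21 (SE 0.21) above the ICI uterus mean. The dimmer probe ran the same way, with 5.57 and 5.20 (uterus), 4.81 and 5.47 (ICI uterus, replicate 1 not above background), and 6.16 and 6.45 (oviduct). On both probes the oviduct arrays were above all 4 uterine arrays. The remaining probe was above background on no array.

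Tdrd5, a tudor-domain gene needed for piRNA precursor processing in the mouse testis, did not follow them. It stood at 6.34 and 6.67 (uterus), 6.03 and 5.53 (ICI uterus), and 5.57 and 7.10 (oviduct). The oviduct arrays lay 1.54 apart, replicate 1 below both uterus arrays and replicate 2 above all 4 uterine arrays. The difference of the means, oviduct minus uterus, was -0.17 (SE 0.48), and it was 0.6 without oviduct replicate 1 and -0.94 without oviduct replicate 2. Against the ICI uterus group it was 0.55 (SE 0.48), and 1.32 or -0.22 without oviduct replicate 1 or 2. Tdrd1, which binds the PIWI protein Piwil2 in mouse germ cells, had 3 probes, with signals of 63.2 to 92.4 and a lowest detection p of 0.0598, none above background on any array.

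Piwil2, the gene of a PIWI protein that binds piRNAs, stood at 9.43 and 9.14 (uterus), 9.12 and 9.07 (ICI uterus), and 10.17 and 10.22 (oviduct). Its unnormalized signal of 506.2 to 712.4 on the uterine arrays and 1661 and 1216 on the oviduct arrays was far from background on every array. The oviduct mean was 0.91 (SE 0.18) above the uterus mean, or 1.88-fold, and 1.10 (SE 0.18) above the ICI uterus mean. The oviduct arrays differed from each other by 0.06.

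Asz1 encodes an ankyrin-repeat scaffold of nuage that sits on the outer mitochondrial membrane. It stood at 8.58 and 8.48 (uterus), 8.42 and 8.31 (ICI uterus), and 9.80 and 9.37 (oviduct). Both oviduct arrays were above the others, by 0.79 at the least, and replicate 1 was the higher. The difference was 1.05 (SE 0.21) from the uterus group and 1.22 (SE 0.21) from the ICI uterus group.

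Mov10l1 encodes the RNA helicase that binds piRNA precursors. It stood at 7.04 and 6.63 (uterus), 6.43 and 6.07 (ICI uterus), and 7.78 and 7.56 (oviduct). The groups did not overlap, with the ICI uterus arrays lowest and the oviduct arrays highest. The oviduct mean was 0.83 (SE 0.23) above the uterus mean and 1.42 (SE 0.23) above the ICI uterus mean. Over all processing alternatives these differences ran from 0.63 to 1.09 and from 0.99 to 1.64.

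Ddx4, the mouse vasa homolog and a helicase of germ cells, had 1 kept probe, which stood at 5.64 and 5.49 (uterus), 5.62 and 5.51 (ICI uterus), and 5.29 and 5.39 (oviduct). The lowest value called above background on the arrays was 4.94 to 5.11, so Ddx4 was measured just over it, and its oviduct arrays lay below the other 4 by 0.09 or more. The difference was -0.22 (SE 0.18) from both uterine groups. Its other probes were above background on no array, apart from 1 on ICI uterus replicate 1. Dazl, which encodes an RNA-binding regulator of translation in germ cells, stood at 5.10 and 5.33 (uterus, replicate 1 not above background), 5.20 and 5.41 (ICI uterus), and 5.13 and 5.35 (oviduct), so the groups overlapped. Mael, which acts in transposon silencing in nuage, had 1 probe with signals of 55.3 to 76.0 and was above background on no array.

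**Figure D1:**
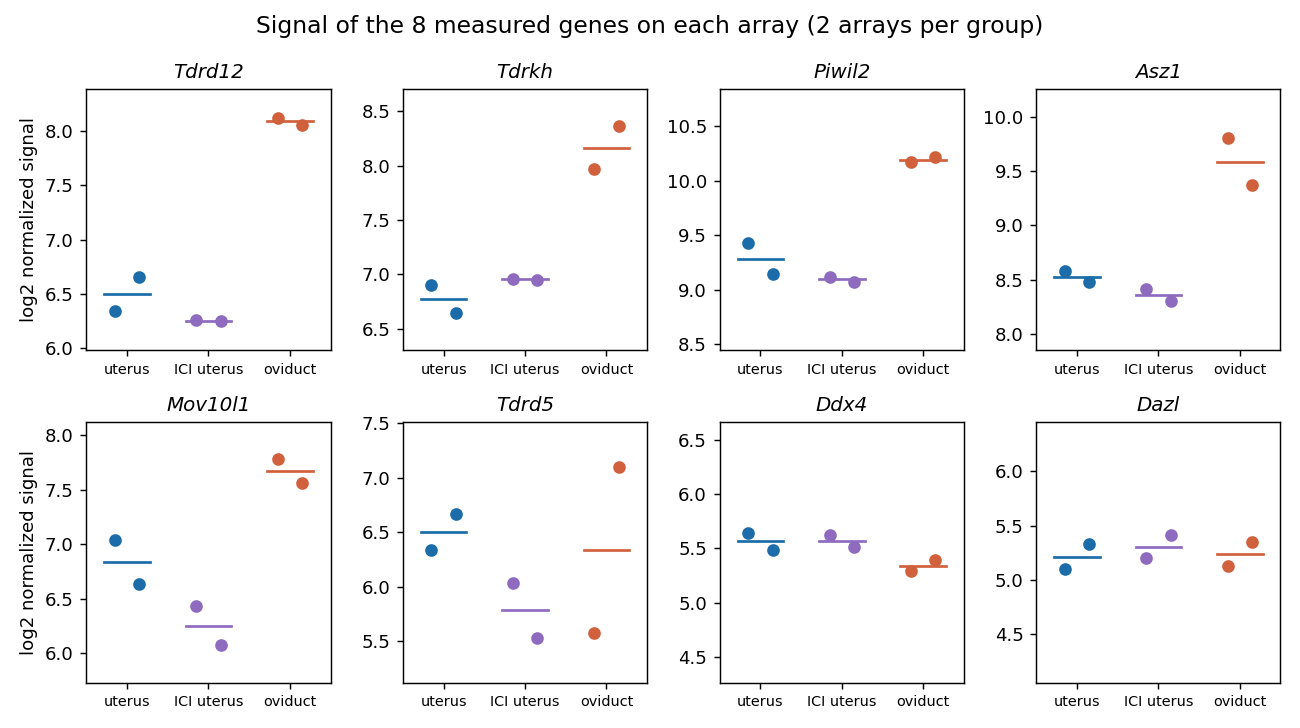
Log2 normalized signal (vertical axis, each panel spanning 2.4 log2 units) of the 8 measured genes by group, with a point for each of 2 arrays and a line at their mean. Both oviduct points lie above the other 4 for Tdrd12, Tdrkh, Piwil2, Asz1 and Mov10l1, while the oviduct points of Tdrd5 are 1.54 apart.

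Side by side, 5 of the 8 measured genes (Tdrd12, Tdrkh, Piwil2, Asz1, Mov10l1) had both oviduct arrays above all 4 uterine arrays, a position held by 16.5% of all kept probes. Taken against the mean of the 4 uterine arrays, their oviduct means were 3.27-fold (Tdrd12), 2.46-fold (Tdrkh), 2.2-fold (Asz1), 2.18-fold (Mov10l1) and 2-fold (Piwil2) higher. A difference over 1 on this scale was found for 1.93% of kept probes. Against the uterus group alone, 5 of the 8 genes were higher without overlap (23.5% of kept probes) and 1, Ddx4, was lower without overlap (23.8%). Against the ICI uterus group the same numbers were 5 (27.3%) and 1 (26.1%). The medians over the 8 genes were 0.87 and 1.15, beside 0.0 and 0.01 for all kept probes. Both comparisons use the same oviduct arrays, whose Tdrd12 values chose the set, so these counts describe the genes and no more.

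**Figure D2:**
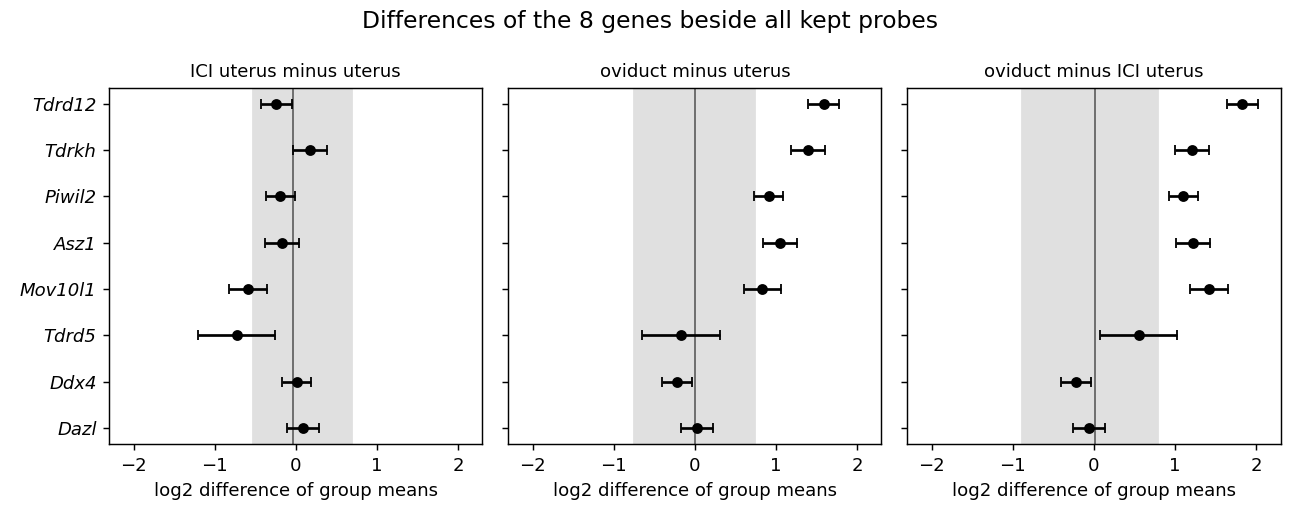
Log2 difference of group means (horizontal axis) for the 8 measured genes in the 3 comparisons, with bars of 1 SE from the fit and a grey band from the 5th to the 95th percentile of all 17677 kept probes around their median line. Tdrd12 lies at 1.59 and 1.83 in the oviduct comparisons, and all genes but Mov10l1 and Tdrd5 lie inside the band in the ICI comparison.

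The 5 genes are those with both oviduct arrays above the 4 uterine arrays, so their sign with either oviduct array left out is fixed and only the sizes are of use. Without oviduct replicate 1 the differences from the uterus group were 1.55 (Tdrd12), 1.58 (Tdrkh), 0.94 (Piwil2), 0.84 (Asz1) and 0.72 (Mov10l1). Without oviduct replicate 2 they were 1.62, 1.20, 0.88, 1.27 and 0.94 in the same order. Between the oviduct replicates these genes differed by 0.06 (Piwil2) to 0.43 (Asz1), where the median kept probe differed by 0.34.

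Embryos of ICI-treated mice were compared with those of untreated mice, a contrast that did not serve to choose the set but shares the uterus arrays with it, to ask whether the genes differ under the treatment. None of the 8 genes passed (0 of 8 higher or lower, limma with Benjamini-Hochberg adjustment, where 0.0% of all kept probes passed), and 1 had an unadjusted p under 0.05, beside 9.23% of all kept probes. That gene was Mov10l1. Its mean was 6.83 ± 0.29 (SD, n = 2) without and 6.25 ± 0.26 (SD, n = 2) with the treatment, a difference of -0.59 (SE 0.23, limma adjusted p = 0.539). Tdrd5 had the lowest difference, -0.73 (SE 0.48, limma adjusted p = 0.652). The differences of Tdrd12 (-0.24, SE 0.19), Piwil2 (-0.19, SE 0.18) and Asz1 (-0.17, SE 0.21) were below 0 and those of Tdrkh (0.18, SE 0.21), Dazl (0.09, SE 0.20) and Ddx4 (0.01, SE 0.18) above it, with limma adjusted p between 0.697 and 0.996. The dimmer Tdrkh probe had the opposite sign, -0.25 (SE 0.28, limma adjusted p = 0.795). Both ICI uterus arrays lay below both uterus arrays for 5 genes (Tdrd12, Tdrd5, Piwil2, Asz1, Mov10l1; 28.7% of kept probes) and above them for Tdrkh (25.3%), with gaps of 0.02 to 0.31. The median was -0.18, beside -0.03 for all kept probes.

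The remaining genes of the piRNA pathway were followed in a list of 25, of which 22 had a probe and 15 were kept. This list and those below were drawn up with earlier results of these data known, so their counts and p-values are descriptive. Gtsf1, whose product is a cofactor of PIWI proteins, stood at 5.54 and 6.40 (uterus), 5.66 and 5.37 (ICI uterus), and 6.94 and 7.56 (oviduct), with both oviduct arrays highest. Its difference was 1.28 (SE 0.34, limma adjusted p = 0.140) from the uterus group and 1.73 (SE 0.34, limma adjusted p = 0.0796) from the ICI uterus group. Tdrd9, a tudor-domain helicase gene that acts with PIWI proteins in the mouse testis, was at 5.66 and 5.52 (uterus), 4.83 and 5.38 (ICI uterus, replicate 1 not above background), and 6.42 and 6.64 (oviduct), the oviduct arrays again highest. Its differences were 0.94 (SE 0.23, limma adjusted p = 0.128) and 1.42 (SE 0.23, limma adjusted p = 0.0650). The germ cell gene Stk31, which encodes a tudor-domain and kinase-like protein, had a difference of 1.19 (SE 0.32, limma adjusted p = 0.139) from the uterus group. In the ICI uterus group Stk31 was not above background, and the oviduct level was at least 2.5-fold higher (limma adjusted p = 0.0839). Mov10, the widely expressed relative of Mov10l1, ran the other way, at 8.28 and 8.06 (uterus), 7.31 and 7.37 (ICI uterus), and 7.49 and 6.54 (oviduct). Its difference, oviduct minus uterus, was -1.16 (SE 0.31, limma adjusted p = 0.142).

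None of these 15 genes passed in limma in any of the 3 comparisons. Between oviduct and uterus 0 of 15 passed, beside 0.0509% of kept probes (0.00566% higher and 0.0453% lower), and 8 had an unadjusted p under 0.05 (18.5% of kept probes). Between oviduct and ICI uterus 0 of 15 passed, beside 0.339% (0.119% higher and 0.221% lower), and 5 had an unadjusted p under 0.05 (20.7%). Between ICI uterus and uterus 0 of 15 passed, beside 0.0% of kept probes, and 3 had an unadjusted p under 0.05 (9.23%). The medians were 0.58, 0.30 and -0.12, beside 0.0, 0.01 and -0.03 for all kept probes, with 11, 11 and 7 of 15 genes above 0. With 1 oviduct array left out, the other is assumed to vary like the uterine groups, which alone give the spread, and passing probes over the whole array rose from 9 to 1516 or 436 (oviduct minus uterus) and from 60 to 1023 or 2800 (oviduct minus ICI uterus). In these fits of a single oviduct array, oviduct minus uterus, 2 genes passed without oviduct replicate 1 (Tdrd7 and Mov10, named after their values were seen) and 1, Stk31, without oviduct replicate 2. Oviduct minus ICI uterus, 3 passed without oviduct replicate 1 (Tdrd9, Gtsf1, Stk31) and 3 without oviduct replicate 2 (Tdrd3, Tdrd9, Stk31). Among the brightest genes of the list, Hsp90aa1 stood at 11.21 and 11.73 (uterus), 12.07 and 12.05 (ICI uterus), and 12.35 and 12.04 (oviduct). Its difference from the uterus group was 0.72 (SE 0.23, limma adjusted p = 0.185) for oviduct and 0.59 (SE 0.23, limma adjusted p = 0.539) for ICI uterus. Tdrd3 stood between 8.80 and 9.61 on the 6 arrays. Tex19.1, which encodes a germ cell and placental factor that restrains retrotransposons, stood between 11.99 and 12.31 on the 6 arrays, and Prmt5, the enzyme that methylates the arginines bound by tudor domains, between 10.85 and 11.25. Of the 22 genes with a probe, 6 were above background on no array.

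A list of 32 other germline genes held markers of primordial germ cells, meiosis genes and testis genes. It too was drawn up with earlier results of these data known, so a gene that passed is no independent test of the list. Dpep3, a membrane dipeptidase gene of the testis, was the gene that passed. It stood at 6.45 and 6.43 (uterus), 6.09 and 6.10 (ICI uterus), and 8.01 and 8.19 (oviduct), with the groups fully apart. It rose by 2.01 (SE 0.17) in oviduct against ICI uterus embryos (limma adjusted p = 0.0328, and 0.00621 to 0.42 over the alternatives) and differed by 1.66 (SE 0.17) from uterus embryos (limma adjusted p = 0.0503, and 0.00841 to 0.474). The call against the ICI uterus group was lost without any 1 of the 4 uterine arrays, with only the compared groups in the fit and with replicate number as a block. Of the 31 genes with a probe, 13 were kept, 4 of them only through the oviduct arrays, and a gene kept that way could only be higher there. Syce1, of the synaptonemal complex, was such a gene, at 5.97 and 5.83 on the oviduct arrays and at least 1.76-fold higher than in the uterus group, where it was not above background. Another 13 genes, among them the meiosis genes Sycp3 and Stra8 (named after their values were seen), were above background on no array. The germ cell and early embryo gene Dppa3 (12.99 to 13.68) and the factor gene Tfap2c (12.24 to 12.46) were bright on all arrays, and neither passed.

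Of the 13 kept germline genes, 1 passed by limma in oviduct against ICI uterus (1 higher, none lower, beside 0.339% of kept probes), and 0 passed in oviduct against uterus (0.0509%) or in ICI uterus against uterus (0.0%). An unadjusted p under 0.05 was found for 7, 4 and 0 of the 13, beside 20.7%, 18.5% and 9.23% of kept probes, and the medians were 0.43, 0.41 and -0.05. For the 9 genes not kept through the oviduct arrays alone these were 5, 2 and 0 genes and medians of 0.35, 0.13 and -0.17, with Dpep3 still the gene that passed. In the fits of a single oviduct array, whose spread comes from the uterine groups, the first 2 counts of passing genes were 4 and 4 (replicate 1 left out, Smc1b, kept only through the oviduct arrays, in both) and 2 and 1 (replicate 2 left out), Dpep3 among the genes each time. Median scaling, a detection p under 0.01 and the mean over probes each gave 1 for oviduct against uterus, which was Dpep3.

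**Figure D3:**
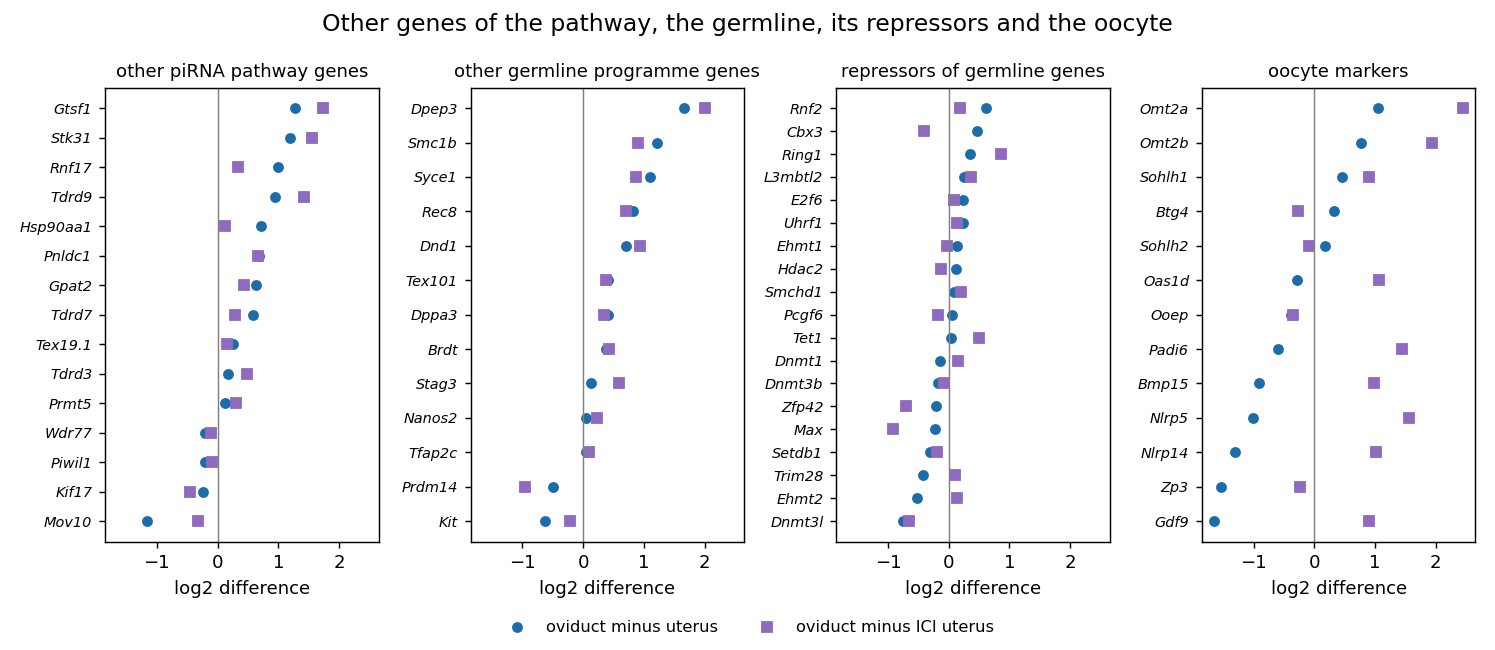
Log2 difference of oviduct embryos from uterus embryos (circles) and from ICI uterus embryos (squares) for the kept genes of 4 lists, with 1 row per gene. Dpep3 lies at 1.66 and 2.01, the repressors of germline genes lie between -0.92 and 0.86, and the medians of the oocyte markers are -0.39 and 0.98.

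Genes whose products silence germline genes in mouse cells were followed in a list of 23, together with the DNA demethylation genes Tet1 and Tet2. Of these 23 genes, 19 were kept. Dnmt3l, the cofactor of the de novo DNA methyltransferases, stood at 12.81 and 12.86 (uterus), 12.57 and 12.88 (ICI uterus), and 12.00 and 12.15 (oviduct), with both oviduct arrays lowest. Its difference was -0.76 (SE 0.19, limma adjusted p = 0.129) from the uterus group and -0.65 (SE 0.19, limma adjusted p = 0.144) from the ICI uterus group. The methyltransferase gene Dnmt3b stood at 12.47 to 13.07 over the 6 arrays, and its groups overlapped. The corepressor gene Trim28 stood at 12.67 to 13.40, with a difference of -0.43 between oviduct and uterus (limma adjusted p = 0.305). The histone methyltransferase gene Ehmt2 had a difference of -0.52 there (limma adjusted p = 0.206). By limma 0 of 19 passed in each comparison, and 3 had an unadjusted p under 0.05 in each, beside 18.5% (oviduct minus uterus), 20.7% (oviduct minus ICI uterus) and 9.23% (ICI uterus minus uterus) of kept probes. The medians were 0.06 (oviduct minus uterus), 0.09 (oviduct minus ICI uterus) and -0.11 (ICI uterus minus uterus). In the fit without oviduct replicate 2, which takes its spread from the uterine groups and in which 2800 probes passed, 3 passed against the ICI uterus group: Max and Zfp42 lower and Tet1, named after its values were seen, higher.

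Oocytes express the piRNA pathway too, so oocyte genes were read on the same arrays. They were high on uterus replicate 2. Gdf9, a growth factor gene of oocytes, was at 7.07 and 11.12 (uterus), 6.63 and 6.44 (ICI uterus), and 7.17 and 7.71 (oviduct). The maternal gene Nlrp5 stood at 5.98 and 10.22, 5.80 and 5.26, and 6.28 and 7.89 in the same order. Over the 13 kept oocyte markers the median signal after subtracting each gene's own mean was 2.04 on uterus replicate 2, 0.41 on oviduct replicate 2 and -0.97 to -0.35 on the other arrays. The summed normalized signal of the 22 markers with a probe was 16533 on uterus replicate 2 and 6956 to 7502 on the other 5, with 19 of 22 above background on that array and 10 to 15 elsewhere. Ooep, at 12.10 to 12.75 on the 6 arrays, weighed heavily in these sums. Both oviduct arrays were above both ICI uterus arrays for 9 of the 13 kept markers (27.3% of kept probes) and below for 2 (26.1%). Against the uterus group these counts were 0 (23.5%) and 2 (23.8%). Of the 13, 2 were kept through the oviduct arrays alone. Zp2 and Figla were above background on no array. Tdrd12, Tdrkh, Piwil2, Asz1 and Mov10l1 had a centred median of -0.35 on uterus replicate 2, between those of the other uterine arrays (-0.52 to -0.24), and of 0.86 and 0.70 on the oviduct arrays. By limma 0 of 13 oocyte markers passed in each comparison (unadjusted p under 0.05 for 1 in oviduct against ICI uterus and for 0 in the others, beside 20.7%, 18.5% in oviduct against uterus and 9.23% in ICI uterus against uterus of kept probes), with medians of -0.39 (oviduct minus uterus), 0.98 (oviduct minus ICI uterus) and -1.37 (ICI uterus minus uterus). Without oviduct replicate 1, with the spread again from the uterine groups alone, 1 passed against the ICI uterus group, the oocyte gene Omt2b, which stood at 5.13 on the array left out and 8.64 on the remaining one.

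Sperm and spermatid markers were almost all at background: of 15 with a probe, 1 or 2 were above it on an array, the summed signal was 379 to 405 on all 6 arrays, and 13 were above background on no array. Markers of the oviduct epithelium had a summed signal of 296 to 352 on the 4 uterine arrays and of 356 and 691 on oviduct replicates 1 and 2, with 2 to 4 and 3 and 5 of 9 genes above background, and Pax8, Ccdc39 and Dnah5 on no array. Their secretory gene Ovgp1 stood at 4.79 and 4.68 (uterus, not above background), 5.28 and 5.43 (ICI uterus), and 6.52 and 8.35 (oviduct). Both oviduct arrays were above all 4 uterine arrays, at least 5.11-fold over the uterus group (limma adjusted p = 0.0923). Its difference from the ICI uterus group was 2.08 (SE 0.53, limma adjusted p = 0.116). Of the 3 kept genes of this list 2 were above 0 and 1 below 0 in each oviduct comparison. Markers of stroma, muscle and blood summed to 577 to 1769 on the uterine arrays and to 660 and 2696 on the oviduct arrays, with 4 to 6 and 6 and 8 of 13 genes above background and Lum, Myh11 and Ptprc on no array. The haemoglobin gene Hba-a1, at 5.58 to 10.73, weighed heavily in these sums. Dcn, a matrix gene of stroma, was at 6.14 and 8.32 on the oviduct arrays and at 4.38 to 4.75 on the uterine arrays, where it was not above background, at least 4.43-fold higher than in the uterus group. Lyz2, a gene of macrophages and granulocytes, was at 5.87 and 7.75 against 4.42 to 5.23, at least 3.32-fold higher than in the uterus group. Both were kept through the oviduct arrays alone, so they could only be higher there, and, like Tdrd12, both were above all 4 uterine arrays on each oviduct array. Of the 7 kept genes of this list 4 were above 0 and 3 below 0 in each oviduct comparison. The medians were 0.02 (oviduct minus uterus) and 0.84 (oviduct minus ICI uterus). Pecam1 had both oviduct arrays lowest, with a difference of -0.61 (SE 0.25) from the uterus group. Pdgfrb, kept through the uterus arrays alone, was at least 1.19-fold lower than there. Uterine epithelium markers summed to 4779 to 5916 and to 3113 and 3379, with 2 to 5 and 3 and 4 of 7 genes above background. Wfdc2, at 12.09 to 12.33 on the uterine and 11.46 and 11.49 on the oviduct arrays, weighed heavily in these sums. Of the 5 kept genes 4 were below 0 and 1, Ltf, above 0 in each oviduct comparison. Ltf stood at 7.32 and 6.46 (uterus), 4.91 and 5.20 (ICI uterus), and 6.69 and 8.46 (oviduct). Prap1, a secreted protein gene of the uterine epithelium, was at 10.19 and 8.76 on the uterus arrays and not above background on the oviduct arrays, at least 23.1-fold lower (limma adjusted p = 0.0376). It was kept through the uterus arrays alone, so it could only be lower elsewhere. No probe passed as lower in that comparison with the authors' values, no detection filter, only the compared groups, a replicate block, array weights or without any 1 of the 4 uterine arrays.

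Markers of the blastocyst's own lineages also stood at other levels on the oviduct arrays, though none passed, and some are named here, like the stromal and blood genes above, after their values were seen. Elf5, a factor gene of the trophoblast, was at 7.68 and 7.73 (uterus), 7.80 and 8.32 (ICI uterus), and 6.51 and 4.71 (oviduct, replicate 2 not above background). Sox17, a factor gene of the primitive endoderm, was at 7.98 and 8.18, 7.71 and 8.19, and 6.51 and 4.93 in the same order, again not above background on oviduct replicate 2. Both oviduct arrays were lowest for both genes. Oviduct minus uterus, the differences were -2.09 (Elf5, SE 0.54), -2.36 (Sox17, SE 0.48), -1.23 (the trophoblast gene Eomes, SE 0.38) and -0.90 (Cdx2, SE 0.21), with limma adjusted p of 0.101 to 0.172. Nanog (0.81, SE 0.17) and the primitive endoderm gene Gata6 (0.59, SE 0.17) were above 0, with limma adjusted p of 0.109 and 0.163. Of the 14 kept markers 9 were below 0 against the uterus group and 11 against the ICI uterus group, 0 of 14 passed by limma in either, and 7 had an unadjusted p under 0.05 in each (18.5% and 20.7% of kept probes). The median after subtracting each gene's own mean was -0.28 and -0.33 on the oviduct arrays and 0.01 to 0.32 on the others. The part of other cells, or of a different make-up of the embryos, in the levels of the 5 genes was not tested.

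**Figure D4:**
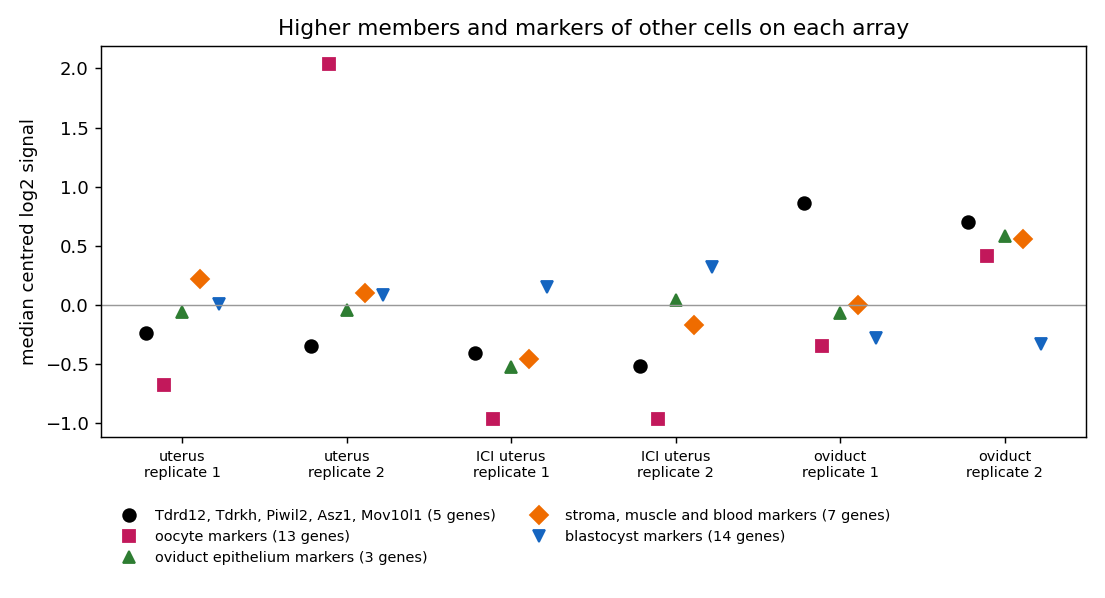
Median over genes of the log2 signal centred on each gene's own mean (vertical axis) on the 6 arrays, for the 5 higher genes and for markers of the oocyte, oviduct epithelium, stroma with muscle and blood, and blastocyst. The 5 genes reach 0.86 and 0.70 in the oviduct group, and the oocyte markers are highest, at 2.04, on uterus replicate 2.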

How the data were processed

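Each of 6 arrays held labelled RNA of 1 blastocyst pool. Per the file headers, the authors deposited for each of 45281 probes an averaged bead intensity with its standard error, a detection p-value and a bead count. A table of log2 values was also deposited, with no word on how it was made. These equal log2 signal less a constant per array and per probe (largest residual 0.00172), and the constant per probe stays unknown. No source used here names the scanning software.

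Signals were processed with neqc (offset 16, quantile normalization) in limma 3.58.1 (R 4.3.3). A probe was kept when some group had a detection p under 0.05 on both arrays. The 3 group means were fitted over all 6 arrays by lmFit, then eBayes (degrees of freedom: 3 residual, 3.77 prior). Tests were two-sided, with Benjamini-Hochberg adjustment over kept probes at 0.05, and were tested on simulated data. SE is that of the log2 difference. Where a group was not above background on any array, a fold is "at least": the bright group's mean over the dim group's, taking on each array the probe's signal or the lowest one above background, whichever was higher. Summed signals are linear and hold the offset of 16 per gene.

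Probes were named from the platform annotation (34885 with 1 symbol, 18 with several, 10378 with none), and 34807 were matched to RefSeq genes. A gene stands at its brightest kept probe. Named were all 10 members, list genes that passed and some of the genes picked by a rule. The rule took, from 4 lists, up to 4 of highest mean and 3 of largest difference in each comparison. It also picked Rnf17, Stag3, Rec8, Kit, Prdm14, Dnd1, Cbx3, Rnf2, Ring1, Hdac2, Padi6, Nlrp14, Zp3 and Omt2a, whose values are not given above. Members and lists were chosen with earlier results of these data known. Figures used matplotlib 3.10.9.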

Additional observations from a re-analysis of the deposited data

How the results depend on the processing

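The alternatives were median scaling, the authors' values, a detection p under 0.01, no detection filter, only the 2 groups compared, a replicate block, array weights, the mean over probes and leaving out each array. Leaving out list genes kept through 1 group only was added after seeing the data and changed no count of passing genes. For genes changed between ICI uterus and uterus, over all probes, in the members and in the 4 lists of other piRNA pathway, other germline, repressor and oocyte genes, the count was 0 in all of these. For probes changed, oviduct minus uterus, the count of 9 (1 higher, 8 lower) became 33 with median scaling (14 higher, 19 lower), 42 with the mean over probes (13 and 29, over 12389 genes and unnamed probes), 0 with the authors' values, only the 2 groups, the replicate block or array weights, 1 without a filter, and 0 to 1516 with 1 array left out (1516 without oviduct replicate 1, 436 without oviduct replicate 2, 0 without any uterine array). Oviduct minus ICI uterus, 60 (21 higher, 39 lower) became 20 with the authors' values (10 and 10), 4 without a filter, 0 with only the 2 groups, 5 with the replicate block, 11 with array weights and 0 to 2800 with 1 array left out (1023 and 2800 without oviduct replicates 1 and 2, 0 without any uterine array). With median scaling it was 47 (28 higher, 19 lower), and with the mean over probes 115 (58 and 57). Leaving out an oviduct array takes the spread from the uterine groups alone.

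Median scaling moved the median of all kept probes to 0.166 (oviduct minus uterus) and 0.213 (oviduct minus ICI uterus), and the members moved with it. Tdrd12, oviduct minus uterus, ran from 1.18 (authors' values) to 1.85 (median scaling). The signs of Tdrd12, Tdrkh, Piwil2, Asz1 and Mov10l1 held in both oviduct comparisons under all alternatives, which groups that do not overlap fix in part. In each oviduct comparison 6 members had groups that did not overlap, 5 higher and 1 (Ddx4) lower. The count was 5 with median scaling and 6 under the other alternatives that kept all arrays. With 1 array left out it was 6 to 8. There 1 array against 2 fails to overlap more easily, and the share over all kept probes is not given for those fits.

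Other germline genes changed, oviduct minus ICI uterus, numbered 1, and 0 with only the 2 groups or the replicate block, and 0 to 4 with 1 array left out. Oviduct minus uterus, the count of 0 was 1 with median scaling, a detection p under 0.01 or the mean over probes, and 0 to 4 with 1 array left out. Other piRNA pathway genes went from 0 to 0 to 2 (oviduct minus uterus) and 0 to 3 (oviduct minus ICI uterus) with 1 array left out, and to 1 with the mean over probes in the latter (Tdrd9). Repressors went from 0 to 0 to 3 and oocyte markers from 0 to 0 to 1 against the ICI uterus group with 1 array left out. For all of these the cause was not tested.

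Signs that turned belonged to genes with differences near 0 or unlike replicates. Tdrd5, oviduct minus uterus, was 0.04 with median scaling and -0.94 to 0.60 with 1 array left out, and against ICI uterus -0.22 to 1.32. Tdrkh, ICI uterus minus uterus, was -0.03 with the mean over probes. Ddx4 in that comparison was -0.0070 with the authors' values and -0.07 to 0.08 with 1 array left out. Dazl was -0.03 to 0.21 with 1 array left out there, -0.11 with the authors' values and -0.09 to 0.14 with 1 array left out in oviduct minus uterus, and 0.06 with median scaling and -0.17 to 0.05 with 1 array left out in oviduct minus ICI uterus.

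Replicate numbers in the titles pair no samples by their labels, and deviations of same-numbered arrays correlated at 0.125 (uterus and ICI uterus), 0.23 (uterus and oviduct) and 0.0657 (ICI uterus and oviduct), so the replicate block, which lowered 9 and 60 calls to 0 and 5, stands here only. With 2 arrays a group, precision is limited by their number, and Ddx4 and Dazl by signals near background.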
